A study of Homo sapiens with 6 samples.

Results

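The genes described here are 10 feedback regulators of MAP kinase signaling, chosen by name in the deposited count table: the dual-specificity phosphatases DUSP1, DUSP2, DUSP4, DUSP5, DUSP6, DUSP8 and DUSP10, the Sprouty genes SPRY2 and SPRY4, and the Sprouty-related gene SPRED1. All 10 are among the 35474 genes of the table, and 9 of them are among the 20776 genes with enough counts to be tested. They were compared between A549 cells transfected with siRNA against BAP18 (siBAP18, 3 libraries) and A549 cells transfected with a nonspecific siRNA (siCtrl, 3 libraries), all collected 48 h after transfection. BAP18, encoded by C17orf49, is a chromatin-associated protein, and the study sequenced these cells to find which genes depend on it in non-small cell lung cancer. A549 is an established lung adenocarcinoma cell line, and all 6 libraries come from it. The labels give the 3 libraries of each group as biological replicates. The study describes 3 BAP18 siRNAs without saying which was sequenced, so an effect of the siRNA on other transcripts and an effect of BAP18 loss cannot be told apart. Total counts ranged from 46035635 to 53657450 in siCtrl and from 42094524 to 56548620 in siBAP18.

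MAP kinases are switched on by phosphorylation of a threonine and a tyrosine, and dual-specificity MAP kinase phosphatases switch them off by removing both phosphates. Many of these phosphatases are themselves transcribed in response to the kinases they inactivate, which makes them a negative feedback loop: DUSP1, DUSP2 and DUSP4 act in the nucleus on ERK, JNK and p38, DUSP5 acts in the nucleus on ERK, DUSP6 acts in the cytoplasm on ERK, and DUSP8 and DUSP10 act mainly on JNK and p38. Sprouty and SPRED proteins work further upstream, where they restrain the path from receptor tyrosine kinases through RAS and RAF to ERK.

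Knockdown of BAP18 was accompanied by unequal changes across these regulators. DUSP8 rose 7.15-fold and DUSP10 rose 3.31-fold, and these were the members past both limits of a call here, 0.05 for the adjusted p and 1 for the size of the log2 fold change. DUSP1, the most abundant member per length, rose 1.68-fold, SPRY2 rose 1.47-fold and DUSP6 rose 1.20-fold. DUSP5 fell to 0.769 of its siCtrl level and SPRY4 to 0.849. DUSP4 and SPRED1 did not pass the test, and DUSP2 had too few counts to be tested. Thus 2 of the 9 tested members were called higher, where 4.72% of all genes tested were, and 0 were called lower, where 3.74% of all genes tested were. By adjusted p alone 5 members rose and 2 fell, against 24.5% and 25.1% of all genes tested. In counts scaled by TMM the 3 libraries of each group did not overlap for 8 of the 9, with 6 higher and 2 lower in siBAP18, where 27.6% and 29% of all genes tested were without overlap in these directions. In the deposited RPKM, DUSP4 and SPRY4 overlapped as well, and these shares of all genes apply to the TMM scale only. The median log2 fold change of the 9 was 0.26, beside 0.00 over all genes tested. Since so many of all genes passed the adjusted p, the count of members is a description, and the size and direction of each change are given gene by gene.

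The targeted gene was read first, as a check of the labels. C17orf49 (chromosome 17, 7014495 to 7017525) had 14.0, 16.1 and 15.1 CPM in siCtrl replicates 1, 2 and 3 and 2.21, 2.35 and 2.66 CPM in siBAP18 replicates 1, 2 and 3, where CPM is the count relative to the library total after TMM scaling. Every siBAP18 library was far under every siCtrl library. Its log2 fold change was -2.65 (SE 0.111), with an adjusted p of 7.31e-16. The neighbouring readthrough gene RNASEK-C17orf49, which shares exons with it, had counts of 2132, 1942 and 1941 in siCtrl and 1931, 1754 and 1577 in siBAP18, so how reads on shared exons were divided bears on the depth of the knockdown. The identity of the cells was checked against markers. All 9 epithelial and A549 markers had counts in every library, and their summed level was 27406, 25861 and 27672 CPM in siCtrl and 22161, 19575 and 23969 CPM in siBAP18, with KRT8, a keratin of simple epithelia, the most abundant in each library. Of these markers 1 rose and 7 fell by adjusted p, where 24.5% and 25.1% of all genes tested did. Markers of leukocytes, endothelium and fibroblasts summed to between 11.0 and 15.5 CPM, most of it COL1A1, over the 9 of 12 that were analysed, and 4 of them, VWF, PDGFRB, CD79A and COL1A2, were at 0 counts in at least 1 library. Of the 4 such markers tested, 1 rose and 2 fell by adjusted p, where 24.5% and 25.1% of all genes tested did. CDH5, which rose, and PECAM1, which fell, rest on few reads, with 8 counts in siCtrl replicate 3 and siBAP18 replicate 3 respectively. Each passed the filter on low counts only through the group where it is high, so both changes are given as a description. With single libraries left out in turn, the adjusted p of CDH5 reached 0.0938. The mitochondrial share of each library was 7.43%, 7.08% and 6.86% in siCtrl and 5.74%, 5.27% and 6.14% in siBAP18. The part of these group differences in the results on the feedback genes was not tested, and in bulk RNA a change in the share of cells that express a gene and a change in its RNA per cell cannot be told apart.

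**Figure D1:**
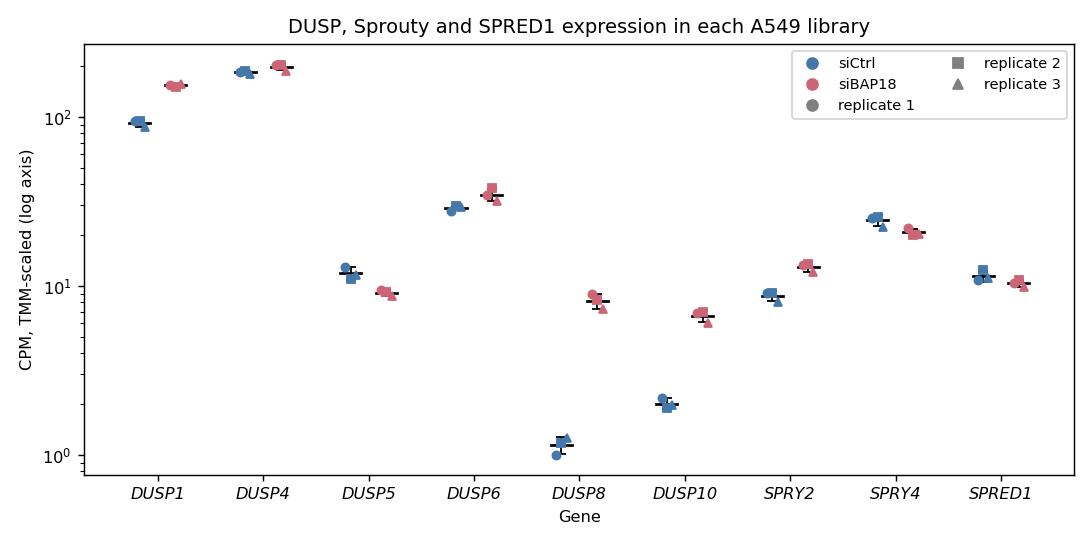
Expression of the 9 tested members in each library, in CPM after TMM scaling on a log axis. Blue points are siCtrl and red points siBAP18, the symbol gives the replicate, and the bars are the mean and SD of 3 libraries; DUSP8 and DUSP10 stand clear of their siCtrl values, while SPRED1 overlaps between the groups.

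Among the 8 members with a promoter window, DUSP1 and DUSP8 are those in whose promoters a full cAMP response element was found, so these promoters are shown. The element is the palindrome TGACGTCA, which binds factors of the CREB and ATF family, and DUSP1 is a textbook immediate early gene. The 250 bases before each start site are written 5′ to 3′ on the gene's strand, from RefSeq on GRCh38.p14, with the element in capitals. The DUSP1 stretch is chr5:172771196-172771445 on the minus strand, next to a start site at 172771195 that is also the end of the gene in the count table. The DUSP8 stretch is chr11:1572272-1572521 on the minus strand, next to a start site at 1572271, which lies beyond the end of the gene in the count table at 1571920.
DUSP1: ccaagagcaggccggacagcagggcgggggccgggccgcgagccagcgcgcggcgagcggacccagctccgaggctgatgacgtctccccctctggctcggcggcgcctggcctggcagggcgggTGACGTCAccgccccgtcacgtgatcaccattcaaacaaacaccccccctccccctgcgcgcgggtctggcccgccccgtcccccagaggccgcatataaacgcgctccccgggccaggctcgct
DUSP8: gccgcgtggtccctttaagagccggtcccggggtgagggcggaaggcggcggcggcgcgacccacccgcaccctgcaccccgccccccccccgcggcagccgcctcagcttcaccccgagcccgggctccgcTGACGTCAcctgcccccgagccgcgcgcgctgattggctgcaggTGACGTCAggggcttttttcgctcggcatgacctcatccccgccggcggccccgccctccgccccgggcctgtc
In DUSP1 the element lies at positions -125 to -118 from the start site. In DUSP8 it occurs at -118 to -111 and again at -74 to -67. Among 35116 RefSeq promoter windows (250 bases before to 50 after the start), 1.85% held the element on either strand and 21 windows, 0.0598%, held it 2 or more times. Of the 10 members 8 had windows among these, 11 windows in all. DUSP4 and DUSP5 had none, so their promoters were not searched for any motif. The E-box CACGTG was found in the windows of DUSP1 and DUSP2, at -108 to -103 and -113 to -108, and in 7.26% of all windows. No member window held the AP-1 site TGANTCA (7.71% of all windows), the ETS site CCGGAAGT (4.14%), the EGR site GCGTGGGCG (0.795%) or the CArG box (1.29%), where N is any base. None of the matches named here overlaps another. The motifs were chosen with the fold changes in view, and a match describes letters in a window, not binding.

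Among the nuclear phosphatases, DUSP1 rose, DUSP5 fell and DUSP4 showed at most a small difference. DUSP1 (chromosome 5, 172768090 to 172771195) had 94.0, 94.1 and 86.5 CPM in siCtrl and 155, 150 and 157 CPM in siBAP18. The lowest siBAP18 library was above the highest siCtrl library by more than the spread within either group. The mean went from 91.5 ± 4.38 to 154 ± 3.53 CPM (SD, n = 3), a log2 fold change of 0.75 (95% interval 0.61 to 0.88, adjusted p = 8.30e-10 by edgeR's quasi-likelihood test). Of all genes tested, 91.6% had a lower fold change. DUSP4 (chromosome 8, 29333064 to 29350668), which acts beside DUSP1 on several MAP kinases, had 184, 186 and 179 CPM in siCtrl and 202, 203 and 188 CPM in siBAP18. The groups did not overlap on this scale, with siBAP18 replicate 3 closest to the siCtrl libraries, but they did overlap in RPKM, from 24.5 to 26.0 in siCtrl and from 24.9 to 28.9 in siBAP18. Its log2 fold change was 0.11 (95% interval -0.02 to 0.25, adjusted p = 0.165), so a rise of more than 1.19-fold lies outside the interval. Without siBAP18 replicate 3 the adjusted p of DUSP4 was 0.0176 at a log2 fold change of 0.15.

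DUSP5 (chromosome 10, 110497838 to 110511544), the nuclear phosphatase of ERK, had 13.0, 11.1 and 11.6 CPM in siCtrl and 9.46, 9.16 and 8.71 CPM in siBAP18. All siBAP18 libraries were lower than all siCtrl libraries. The log2 fold change was -0.38 (SE 0.0927, adjusted p = 0.00133), and its range when each library was left out in turn was -0.43 to -0.31. DUSP2 (chromosome 2, 96143166 to 96145440), a phosphatase best known from activated immune cells, had 0 counts in all 3 siCtrl libraries and 4, 0 and 6 counts in siBAP18 replicates 1, 2 and 3. A count of 0 allows up to 3 counts, or 0.0559 to 0.0652 CPM of the unscaled totals in the siCtrl libraries, and a siBAP18 library was at 0 as well, so no difference in DUSP2 was detectable at this depth.

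DUSP6, the cytoplasmic phosphatase most specific for ERK and a standard readout of ERK activity, rose slightly. DUSP6 (chromosome 12, 89347232 to 89353271) had 27.9, 29.6 and 29.2 CPM in siCtrl and 34.3, 37.7 and 32.0 CPM in siBAP18. The groups did not overlap, and siBAP18 replicate 3 was again the closest to siCtrl. The log2 fold change was 0.26 (95% interval 0.11 to 0.42, adjusted p = 0.00456). This row cannot be read as the sense transcript alone. An antisense gene on the plus strand (chromosome 12, 89351015 to 89353271) shares 1875 exon bases with DUSP6, 40.5% of the exon bases of DUSP6 and 83.1% of its own. Its counts were 1187, 1104 and 1143 in siCtrl and 1504, 1782 and 1090 in siBAP18, which is between 0.800 and 0.841 of the DUSP6 count in every library. Its log2 fold change was 0.27 (adjusted p = 0.00377), close to that of DUSP6. The libraries were made strand-specific, but whether strand was used in counting is not given in the sources used here, so reads of the pair cannot be told apart.

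The other cytoplasmic ERK phosphatases are scarcer, with a mean in siCtrl of 0.210 RPKM for DUSP7 and 0.217 RPKM for DUSP9 against 6.23 RPKM for DUSP6. DUSP7 had 1.32, 1.25 and 1.01 CPM in siCtrl and 1.18, 1.10 and 1.41 CPM in siBAP18, with a log2 fold change of 0.03 (95% interval -0.43 to 0.49). DUSP9 was scarce and fell, from 34, 21 and 34 counts in siCtrl to 11, 4 and 6 counts in siBAP18, with a log2 fold change of -2.12 (SE 0.435, adjusted p = 0.00023). It was the only gene called lower among the 10 MAP kinase phosphatases, where 3.74% of all genes tested were, and it rests on few reads. It passed the filter on low counts only through siCtrl, the group where it is high, so its fall is given as a description.

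The phosphatases of JNK and p38 held the steepest rises of the family. DUSP8 (chromosome 11, 1554044 to 1571920) was nearly silent in siCtrl, at 53, 55 and 59 counts, and had 487, 483 and 294 counts in siBAP18. In CPM these are 0.996, 1.18 and 1.26 against 8.95, 8.27 and 7.25. The siBAP18 libraries were all several times above the siCtrl libraries, with replicate 3 the lowest of the 3. The log2 fold change was 2.84 (SE 0.145, 95% interval 2.54 to 3.14, adjusted p = 3.74e-14), and 99.4% of all genes tested had a lower one. DUSP10 (chromosome 1, 221701424 to 221742176) had 2.18, 1.89 and 1.97 CPM in siCtrl and 6.95, 7.00 and 6.02 CPM in siBAP18, again with no overlap and with siBAP18 replicate 3 lowest. The log2 fold change was 1.72 (SE 0.132, 95% interval 1.45 to 2.00, adjusted p = 6.62e-11), and 98.2% of all genes tested had a lower one. DUSP16, the remaining phosphatase of this class, had 51.2, 53.0 and 50.4 CPM in siCtrl and 58.7, 65.5 and 53.3 CPM in siBAP18. Its log2 fold change was 0.20 (adjusted p = 0.028). It did not pass 0.05 without siCtrl replicate 1, 2 or 3 (adjusted p = 0.105, 0.0615 and 0.117) and without siBAP18 replicate 1 or 2 (0.0689 and 0.139). The intervals of DUSP8 and DUSP10 do not meet each other or that of DUSP16, at 0.05 to 0.35.

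The genes around DUSP8 were looked at because its rise was the largest among the members. KRTAP5-AS1 (chromosome 11, 1571353 to 1599184, plus strand) spans the 5′ end of DUSP8 on the opposite strand without sharing an exon base. It had 42, 40 and 44 counts in siCtrl and 228, 240 and 140 in siBAP18, a log2 fold change of 2.19 (SE 0.176, adjusted p = 1.52e-10), so both genes of the pair on opposite strands rose. The part of reads from either gene in the count of the other was not tested. Pseudogenes named for members could take reads from them, but held few: DUSP8P5 had 8 to 19 counts in a library, DUSP5P1 4 to 10, DUSP8P3 0 to 6 and DUSP8P4 0 to 2.

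**Figure D2:**
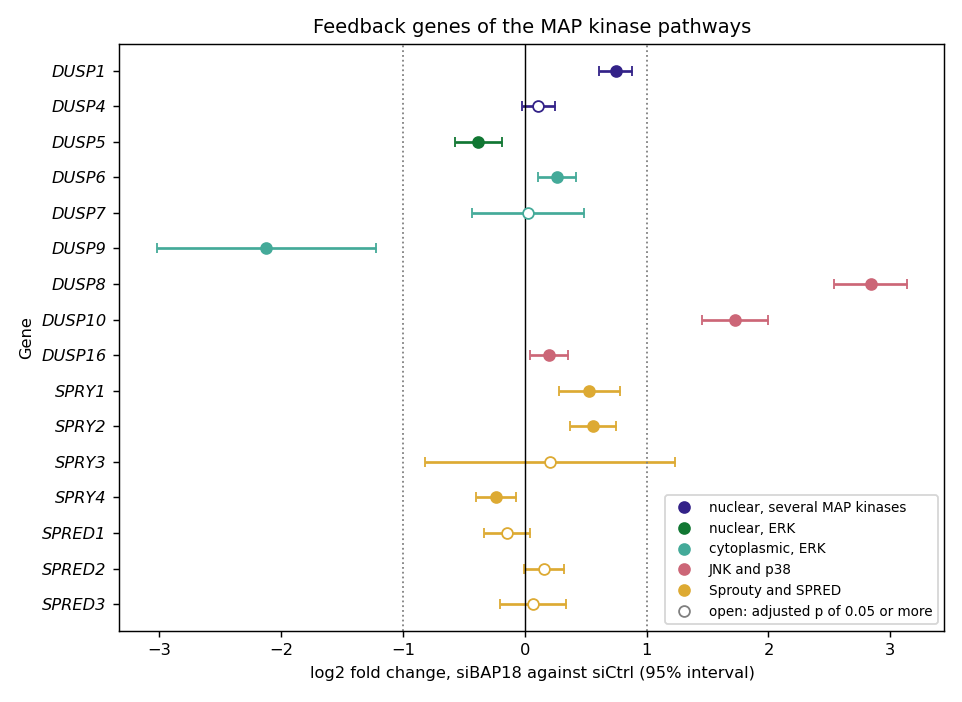
Log2 fold changes of siBAP18 against siCtrl with 95% intervals for the 9 tested MAP kinase phosphatases and the 7 Sprouty and SPRED genes, colored by class. Filled points had an adjusted p under 0.05 and dotted lines mark a log2 fold change of 1 in either direction; DUSP8 and DUSP10 lie beyond 1 and DUSP9 beyond -1.

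Among the Sprouty and SPRED members SPRY2 rose, SPRY4 fell and SPRED1 did not pass the test. SPRY2 (chromosome 13, 80335976 to 80340951) had 9.10, 9.12 and 8.06 CPM in siCtrl and 13.2, 13.4 and 12.0 CPM in siBAP18, with every siBAP18 library above every siCtrl library. The log2 fold change was 0.56 (SE 0.0915, adjusted p = 1.49e-05). SPRY4 (chromosome 5, 142310427 to 142326455) had 25.4, 25.6 and 22.3 CPM in siCtrl and 21.9, 20.0 and 20.2 CPM in siBAP18. The groups were apart by a narrow margin on this scale, between siCtrl replicate 3 and siBAP18 replicate 1, and these same libraries met at 3.73 RPKM. Its log2 fold change was -0.24 (95% interval -0.40 to -0.08, adjusted p = 0.0138), and it did not pass 0.05 without siCtrl replicate 1 (adjusted p = 0.0757) or siCtrl replicate 2 (0.0814). SPRED1 (chromosome 15, 38252326 to 38357249), which brings neurofibromin to RAS at the membrane, had 10.8, 12.4 and 11.1 CPM in siCtrl and 10.3, 10.9 and 9.79 CPM in siBAP18. The groups overlapped, and the log2 fold change was -0.14 (95% interval -0.33 to 0.05, adjusted p = 0.208).

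The rest of the Sprouty and SPRED family was read for comparison. SPRY1 had 4.76, 4.73 and 5.11 CPM in siCtrl and 7.81, 7.47 and 5.67 CPM in siBAP18, a log2 fold change of 0.53 (adjusted p = 0.000766), close to that of SPRY2. SPRED2 (0.16, 95% interval -0.01 to 0.33), SPRED3 (0.07, -0.21 to 0.34) and SPRY3 (0.21, -0.82 to 1.24) did not pass the test, and all 3 overlapped between the groups in CPM. Without siBAP18 replicate 3 the adjusted p of SPRED2 was 0.0129. Over the 7 Sprouty and SPRED genes, 2 rose and 1 fell by adjusted p, where 24.5% and 25.1% of all genes tested did.

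Levels can be compared between genes in RPKM, which divides by gene length. In siCtrl the order of the mean RPKM was DUSP1 (45.3), DUSP4 (25.2), DUSP6 (6.23), DUSP5 (4.52), SPRY4 (4.11), SPRY2 (2.88), SPRED1 (1.38), DUSP10 (0.689), DUSP8 (0.248) and DUSP2 (0). In siBAP18 it was DUSP1 (76.1), DUSP4 (27.3), DUSP6 (7.51), SPRY2 (4.25), SPRY4 (3.50), DUSP5 (3.49), DUSP10 (2.29), DUSP8 (1.77), SPRED1 (1.25) and DUSP2 (0.0374). In each group 1 pair of neighbours in the order overlapped over the libraries, DUSP5 and SPRY4. SPRY2 passed both of them in siBAP18, and DUSP10 and DUSP8 passed SPRED1. Even after the steepest rise DUSP8 therefore remained among the scarce members in RPKM, and the 3 most abundant members kept their places.

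Summed RPKM gives the size of the whole pool of phosphatase mRNA. The 10 MAP kinase phosphatases (the 7 members with DUSP7, DUSP9 and DUSP16) summed to 92.4, 94.5 and 87.8 RPKM in siCtrl and 131, 134 and 122 RPKM in siBAP18. The groups did not overlap, and the mean went from 91.5 ± 3.42 to 129 ± 6.14 RPKM (SD, n = 3), a ratio of 1.41. The nuclear phosphatases of several MAP kinases summed to 70.4 ± 3.10 RPKM in siCtrl and 103 ± 3.34 RPKM in siBAP18, and most of that difference was DUSP1, at 45.3 and 76.1 RPKM, while DUSP4 was at 25.2 and 27.3 RPKM with overlapping groups. The JNK and p38 class went from 9.93 ± 0.306 to 14.4 ± 1.85 RPKM. Most of the level of that class is DUSP16, but most of the difference was not. DUSP16 was at 8.99 and 10.4 RPKM, DUSP8 at 0.248 and 1.77 RPKM, and DUSP10 at 0.689 and 2.29 RPKM. The cytoplasmic ERK class went from 6.66 ± 0.214 to 7.77 ± 0.852 RPKM, and DUSP5, the lone nuclear ERK phosphatase, from 4.52 ± 0.346 to 3.49 ± 0.246 RPKM. Most of the cytoplasmic class was DUSP6, at 6.23 and 7.51 RPKM. The limit on its antisense gene therefore applies to this sum and to that of the 10 phosphatases. Sprouty and SPRED genes summed to 13.9 ± 0.774 RPKM in siCtrl and 15.6 ± 1.44 RPKM in siBAP18, with overlap between the groups. An exact two-sided permutation test of 3 against 3 libraries cannot give a p under 0.1, so by that test none of these sums can pass a threshold of 0.05.

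The makeup of the pool moved toward DUSP1. DUSP1 made up 49.9%, 49.9% and 48.4% of the summed RPKM of the 10 phosphatases in siCtrl and 58.8%, 57.2% and 61.1% in siBAP18. The share of DUSP4 went from 27.5% ± 0.387 to 21.1% ± 0.661, that of DUSP16 from 9.82% ± 0.196 to 8.01% ± 0.753 and that of DUSP5 from 4.95% ± 0.403 to 2.70% ± 0.0765. DUSP6, read with the limit on its antisense gene, took 6.81% ± 0.332 in siCtrl and 5.80% ± 0.436 in siBAP18. DUSP8 went from 0.272% ± 0.0389 to 1.37% ± 0.125 and DUSP10 from 0.754% ± 0.0548 to 1.77% ± 0.124. Within the 7 Sprouty and SPRED genes, SPRY4 was the leading gene in siCtrl with 29.5% ± 1.09 of the summed RPKM against 20.7% ± 0.668 for SPRY2, while in siBAP18 SPRY2 stood at 27.3% ± 0.0876, SPRED2 at 26.2% ± 1.02 and SPRY4 at 22.5% ± 1.40. SPRED2 stood at 26.3% ± 1.17 in siCtrl, and in siBAP18 its libraries overlapped with those of SPRY2. A share falls when other genes rise, so shares describe the makeup of the pool and not the change of a gene.

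**Figure D3:**
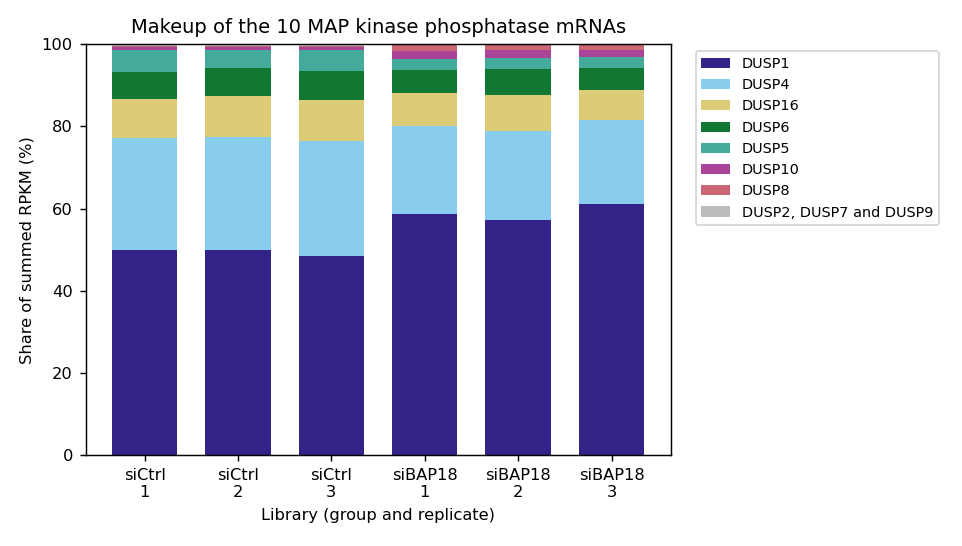
Share of each gene in the summed RPKM of the 10 MAP kinase phosphatases, in percent, for the 6 libraries. DUSP1 takes 48.4% to 49.9% in the siCtrl libraries and 57.2% to 61.1% in the siBAP18 libraries, and the bands of DUSP8 and DUSP10 widen at the top of the siBAP18 bars.

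The atypical dual-specificity phosphatases, small enzymes that lack the kinase-binding domain of the MAP kinase phosphatases, gave a wider comparison. Of 14 genes in the list 13 were in the table and 10 were tested. DUSP14, DUSP3, DUSP26 and DUSP12 rose by adjusted p and 0 fell, where 24.5% and 25.1% of all genes tested did. DUSP14 went from 6.95 ± 0.365 to 11.5 ± 0.662 CPM (log2 fold change 0.72, adjusted p = 6.55e-07), and DUSP3, which acts on ERK and JNK, from 42.4 ± 0.395 to 57.5 ± 1.67 CPM (0.44, adjusted p = 4.58e-06). DUSP26 was called higher, from 2, 8 and 6 counts in siCtrl to 50, 38 and 22 counts in siBAP18, with a log2 fold change of 2.66 and a wide interval of 1.73 to 3.60. It passed the filter on low counts only through siBAP18, the group where it is high, so its place among the genes that rose is no support for the list. The median of the 10 was 0.09 on the log2 scale, and the 6 genes that did not pass the test lay between -0.20 and 0.10.

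Transcripts known to be induced by ERK signaling included the largest changes among the lists compared here. Of 16 ERK-responsive genes, all tested, 5 were called higher and 0 lower, where 4.72% and 3.74% of all genes tested were. By adjusted p 9 rose and 4 fell, where 24.5% and 25.1% of all genes tested did, and the median log2 fold change was 0.41. EGR1, an immediate early zinc finger factor, went from 0.338, 0.344 and 0.299 CPM in siCtrl to 29.0, 25.5 and 25.3 CPM in siBAP18 (log2 fold change 6.33, SE 0.139). FOSL1, an AP-1 subunit, went from 7.51 ± 0.299 to 97.6 ± 8.32 CPM (3.70, SE 0.0841). IER2 (1.45) and PHLDA1 (1.20) were also called, and EPHA2 (0.95) rose without reaching the fold threshold. FOS (1.25) completes the called genes, and the genes that fell were CCND1 (-0.79), ETV1 (-0.41), ETV5 (-0.37) and LIF (-0.21); these 5 were named after their values were seen. LIF did not pass 0.05 without siCtrl replicate 2 (adjusted p = 0.0919). ETV1 and ETV5 are PEA3 factors often read beside DUSP6 and SPRY4 as outputs of ERK, and CCND1 encodes cyclin D1. The remaining PEA3 factor, ETV4, did not pass the test (0.11, adjusted p = 0.220).

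The cascade that these regulators restrain was read as a list of 25 genes from receptors through RAS to ERK. By adjusted p 4 rose and 12 fell, where 24.5% and 25.1% of all genes tested did, and the median log2 fold change was -0.21. None of the 25 was called, where 4.72% of all genes tested were called higher and 3.74% lower. The 12 include MAPK3 and BRAF, whose adjusted p was over 0.05 without some single libraries. ERBB3, a receptor, went from 29.4 ± 1.45 to 16.7 ± 0.311 CPM (log2 fold change -0.82, SE 0.074, adjusted p = 1.32e-09). SOS1, an exchange factor of RAS (-0.68), and PTPN11, the phosphatase SHP2 that promotes RAS activation (-0.64), also fell. HRAS (0.72) and EGFR (0.31) rose, and so did MAP2K2 (0.36), which was named after its values were seen. MAPK3, which encodes ERK1, was at -0.27 (adjusted p = 0.0242), and did not pass 0.05 without siCtrl replicate 1 (0.0758), siCtrl replicate 2 (0.0805) or siBAP18 replicate 2 (0.175). BRAF was at -0.30 (adjusted p = 0.0206) with overlapping groups, and did not pass 0.05 without siCtrl replicate 2 (0.0987), siCtrl replicate 3 (0.0653), siBAP18 replicate 1 (0.0838) or siBAP18 replicate 3 (0.0557).

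DUSP8 and DUSP10 act on the JNK and p38 cascades, of which 22 genes were analysed. Of these, 1 was called higher and 0 lower, where 4.72% and 3.74% of all genes tested were. By adjusted p 6 rose and 8 fell, where 24.5% and 25.1% of all genes tested did, and the median log2 fold change was 0.01. The kinases of p38 moved apart: MAP2K3 was called higher, from 20.5 ± 0.575 to 42.6 ± 1.80 CPM (log2 fold change 1.06, adjusted p = 6.91e-12), and MAP2K6 fell from 13.4 ± 0.663 to 7.26 ± 0.720 CPM (-0.87, adjusted p = 3.12e-08). The JNK scaffold genes MAPK8IP1 (0.86) and MAPK8IP3 (0.50) rose, and MAPK9, which encodes JNK2, fell (-0.53, adjusted p = 1.11e-05). MAPK8, which encodes JNK1, was at -0.39 (adjusted p = 0.00506) and MAPK14, which encodes p38 alpha, at 0.14 (95% interval -0.06 to 0.34); both were named after their values were seen because they are the main targets of DUSP8 and DUSP10.

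Other negative regulators of the path from receptors to ERK were counted in the same way. Of 14 genes, 0 were called, where 4.72% and 3.74% of all genes tested were called higher and lower. By adjusted p 2 rose and 4 fell, where 24.5% and 25.1% of all genes tested did, and the median log2 fold change was -0.04. RASA3, a RAS GTPase-activating protein, went from 14.2 ± 0.603 to 21.7 ± 0.354 CPM (0.61, adjusted p = 3.03e-07). NF1, which encodes neurofibromin, the partner of SPRED1, went from 37.6 ± 1.70 to 26.9 ± 3.91 CPM (-0.48, adjusted p = 3.97e-05). RASA1 (-0.32), DAB2IP (-0.31) and LRIG1 (-0.29) fell as well, and PEBP1, an inhibitor of RAF named after its values were seen, was at 0.18 (adjusted p = 0.0249), and did not pass 0.05 without siCtrl replicate 1, 2 or 3 (adjusted p = 0.0603, 0.148 and 0.0943) or siBAP18 replicate 1 (0.0983).

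**Figure D4:**
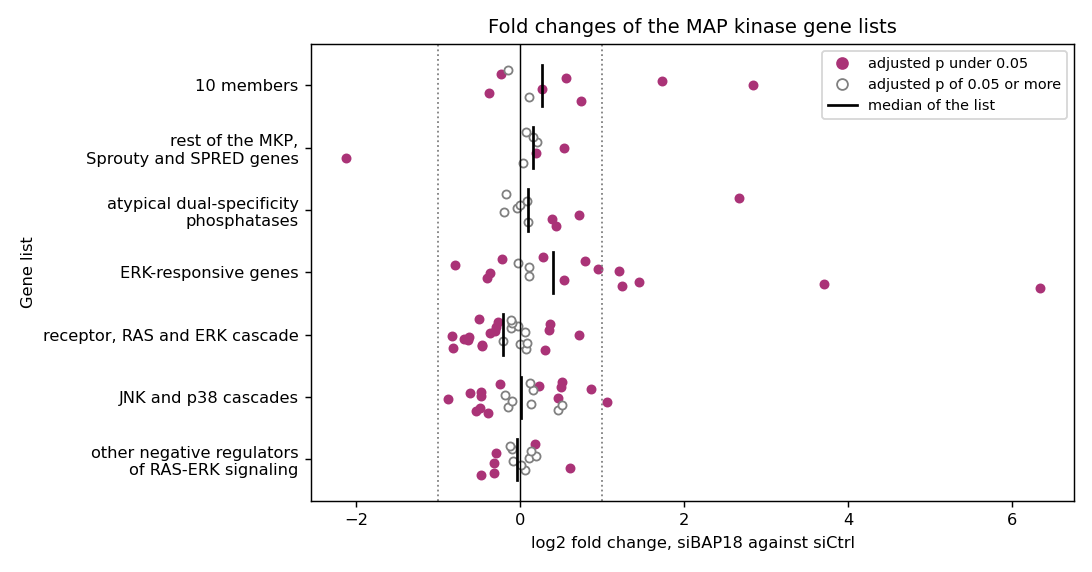
Log2 fold changes of siBAP18 against siCtrl for the tested genes of each list, 1 point per gene. Filled points had an adjusted p under 0.05, the vertical bar is the median of the list and dotted lines mark a log2 fold change of 1 in either direction; the ERK-responsive list reaches 6.33 at EGR1, and the receptor, RAS and ERK cascade has its median at -0.21.

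DUSP1 was the member with the highest RPKM, and the genes outside these lists whose log2 CPM followed it most closely over the 6 libraries were CYFIP2, ZSCAN26 and DPF2, each with a Pearson r of 0.999. Their log2 fold changes were 0.70, 0.32 and 0.55. Of 14117 genes compared, 235 had an r of at least 0.99 with DUSP1, and all 6 points share the split between siCtrl and siBAP18.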

How the data were processed

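Poly(A) RNA of A549 cells was sequenced as strand-specific paired-end libraries, 3 siCtrl and 3 siBAP18. The authors deposited read counts per gene, whole numbers with no normalization, together with gene lengths, and RPKM values, which were checked to equal the deposited count over the listed length and the total of the column, in the usual RPKM units. The aligner, the counting program and the use of strand are not given in the sources used here. The submitters' processing notes list hg38 and GRCm38, and the coordinates of the table are those of the human build. In each library 74.9% to 77.2% of genes with 1 to 20 counts had an even count, as when both mates of a pair are counted, so low counts may stand for fewer fragments, and the limit that a count of 0 allows covers counting error only.

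Counts were analysed with edgeR 4.0.16 in R 4.3.3: filterByExpr, TMM scaling, the quasi-likelihood test on condition over 20776 genes, and Benjamini-Hochberg adjustment over all of them. Calls needed an adjusted p below 0.05 together with a log2 fold change above 1 in size. Standard errors are the log2 fold change over the square root of F, and intervals are 95% and include the spread between libraries. The p-values measure the spread between 3 libraries a group, with total counts from 42094524 to 56548620. No libraries were copies of each other. Over genes whose average log2 CPM reached 1, the mean absolute difference in log2 CPM between siCtrl libraries was 0.104 to 0.116. Across the same genes siBAP18 replicate 3 stood furthest from its group. It was 0.160 from replicate 1 and 0.203 from replicate 2, which were 0.130 apart. The steps were tested on simulated data. Alternatives used DESeq2 1.42.0, limma 3.58.1 on log2(RPKM + 1) and log2(RPKM + 0.1), other scalings and filters, a replicate block, and each library left out. Tables, promoter matches and plots were made with Python 3.11.15, numpy 2.4.6, pandas 2.3.3, scipy 1.17.1 and matplotlib 3.10.9. Promoters are RefSeq windows on GRCh38.p14, matched by symbol.

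The members and gene lists were chosen with earlier results of these data known. Named genes are the 10 members, C17orf49, EGFR, BRAF and MAPK3, the rest of the MAP kinase phosphatase, Sprouty and SPRED family, up to 5 genes of each other list with the smallest adjusted p, and the 3 genes most like DUSP1 in log2 CPM among genes whose average log2 CPM reached 1. PTPRC, CD3E, DCN, DUSP21 and MAP3K20 were not analysed here, and DUSP13, DUSP15 and DUSP27 were under the filter. Some other genes of the lists are not reported here.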

Additional observations from a re-analysis of the deposited data

How the results depend on the processing

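Over 17 alternatives, DUSP1, DUSP5, DUSP8, DUSP10, SPRY2 and SPRED1 kept their direction and their side of an adjusted p of 0.05 in all 17, DUSP4 and DUSP6 in 16 and SPRY4 in 12. The log2 fold change ranged from 1.15 to 2.91 for DUSP8, 0.96 to 1.79 for DUSP10 and 0.71 to 0.77 for DUSP1. By the same edgeR test 1195 genes were called with at least 10 counts required in every library. With no filter 2051 were called, against 1758 in the main fit. The share of calls that were higher was 50.6%, 58.0% and 55.8% in that order, and 2 members were called in each. The 1758 genes called became 348 by limma on log2(RPKM + 1) for genes averaging 0.5 RPKM or more, 345 on that scale with no filter and 909 on log2(RPKM + 0.1), and 1 member in place of 2 was called on the log2(RPKM + 1) scale, where a pseudocount of 1 shrinks the change of low genes such as DUSP10. SPRY4 had -0.18 (adjusted p = 0.0629), -0.18 with no filter (0.119) and -0.22 with the pseudocount of 0.1 (0.0619) by limma, and DUSP6 0.23 (0.102) on log2(RPKM + 1) with no filter. The last setting also put the adjusted p over 0.05 for SPRY1 (0.0812), EGFR (0.0661), NF1 (0.0734) and LRIG1 (0.0572), as did each of the 3 limma settings for DUSP16, MAPK3 and BRAF (0.0602 to 0.274). With each library left out, 1714 to 1934 genes and 2 members were called, 6 to 8 members passed the adjusted p, SPRY4 ranged from -0.30 to -0.21 and DUSP4 from 0.090 to 0.15. Reversed signs occurred for genes that did not pass the test: DUSP7 was at -0.078 without siCtrl replicate 3 and -0.068 without siBAP18 replicate 3, in a range up to 0.11, and SPRY3 at -0.17 without siCtrl replicate 3, in a range up to 0.90. Scaling moved the median of all genes by at most 0.01 on the log2 scale.

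Residuals of same-numbered libraries correlated at 0.0722, 0.222 and 0.105 over 14222 genes, and each siCtrl library correlated best with its own number. Whether replicate numbers pair the libraries is not settled by these low values, and the main fit used condition only. A replicate block gave 1741 calls and 10803 genes past the adjusted p, against 1758 and 10305 in the main fit. With the block 2 members were called and 7 members passed the adjusted p. Depth limits DUSP2, DUSP9, DUSP26 and SPRY3, which had few counts.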
